A study of Mus musculus with 5 samples.

Results

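Naïve lung ILC2s with Klrg1 transcripts were 1084 cells of 1 library. They were chosen by their counts: at least 200 genes, under 5% mitochondrial counts, 2000 or more unique molecular identifiers (UMIs, each standing for 1 captured RNA molecule), at least 1 UMI of Il1rl1, no UMI of Il13 and at least 1 UMI of Klrg1. They made up 1084 of the 4606 naïve cells that met the limits other than that on Klrg1, out of 6953 naïve barcodes and 18628 barcodes in the series. The comparison cells were the 2809 naïve cells that met the same limits with no UMI of Klrg1 or Il17rb, and the other 713 cells, with Il17rb and without Klrg1, were in neither group. The values of Klrg1, Il17rb, Il13 and Il1rl1 chose the cells, so their levels in these groups are a description.

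The series held 5 libraries of ILC2s sorted from the lungs of wild-type female C57BL/6 mice aged 4 to 8 weeks as Lin- ST2+ CD127+ Thy1.2+ CD45+ cells, with 5 mice pooled in each. The naïve library came from mice with no tumour and was sequenced without culture. The ta-non-activated libraries came from mice with TC1 tumours in the flank, 2 and 3 weeks after implantation, also without culture. The ta-activated libraries came from such mice at weeks 2 and 3 and were kept 7 days in culture, with each of TSLP, rmIL-33 and rhIL-2 at 10 ng/mL. The sort on ST2 and CD127 left out cells low in either protein, and a pool of mice gives no spread between animals. The week 2 ta-non-activated library stood apart from its group before any result: 96.5% of its cells with an Il1rl1 UMI also had Il13, against 5.74% in the week 3 ta-non-activated library, 97.7% and 95.5% in the ta-activated libraries of weeks 2 and 3, and 8.50% in the naïve library. Of the naïve barcodes, 31 also occurred in another library.

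KLRG1 is an inhibitory receptor of the killer cell lectin-like family that binds E-, N- and R-cadherin on neighbouring cells and carries an ITIM that recruits the phosphatases SHIP-1 and SHP-2. It is known from effector T cells and NK cells, and it also marks mature ILC2s in the lung and the inflammatory ILC2s that respond to IL-25, whose receptor subunit is encoded by Il17rb. ILC2s hold the transcription factor GATA3, sense IL-33 through ST2 (the product of Il1rl1) and make IL-5, IL-13, GM-CSF and amphiregulin. Klrg1 (ENSMUSG00000030114) lies on chromosome 6 from 122270596 to 122282882 on the minus strand of GRCm38, and Il17rb lies on chromosome 14 from 29996135 to 30008896, also on the minus strand.

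Klrg1 was counted sparsely in these cells. Of the 1084 members, 740 (68.3%) had 1 Klrg1 UMI, 237 (21.9%) had 2 and 107 (9.87%) had 3 or more, up to 11 in 1 cell. The members made up 23.5% of the cells that met the limits (95% Clopper-Pearson interval 22.3 to 24.8), and 12.5% (11.5 to 13.5) when each cell was thinned at random to 2000 UMIs. At that equal depth 575 cells had a Klrg1 UMI, and cells without a Klrg1 UMI cannot be read as cells without Klrg1 RNA. The members held a median of 4964.5 UMIs and the comparison cells 4359, and 8.58% of members against 2.74% of comparison cells had over 10000 UMIs. Around the lower limit, 22 of 175 cells with 2000 to 2499 UMIs and 2 of 76 with 1500 to 1999 had a Klrg1 UMI. All intervals of levels and shares cover counting error only. Cells of 1 library are not replicates, so the naïve comparison has no replicate check and no p-value.

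In cells without Il1rl1 the share with Klrg1 was lower than in Il1rl1+ cells. At 2000 UMIs, 12.8% (11.9 to 13.7) of the 5034 naïve cells with Il1rl1, Il13+ cells included, had a Klrg1 UMI, against 5.48% (4.22 to 6.98) of the 1113 cells without Il1rl1 and 3.83% (2.25 to 6.06) of the 444 cells with neither Il1rl1 nor Gata3, with median depths of 4695.5, 4297 and 4366.5 UMIs. Of the 202 cells with no Gata3 UMI and 2 or more UMIs of a list of endothelial genes, planned as cells that should lack Klrg1, 12.4% (8.17 to 17.7) had a Klrg1 UMI at 2000 UMIs, about the share in Il1rl1+ cells. Calcrl, the receptor chain for calcitonin gene-related peptide, and Pecam1 of this list were counted in the members at 317.8 and 55.1 CPM. Without these 2 genes, a choice made after seeing the data, 18 cells carried 2 or more UMIs of the list and no Gata3, and 0 of the 18 had Klrg1, which allows a share of up to 18.5%.

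In Il1rl1+ cells, Klrg1 was high in the naïve library and in 1 of the 4 tumour libraries. Among cells with an Il1rl1 UMI, Il13+ cells included, its level was 70.4 CPM (UMIs of the gene in 1000000 UMIs of the summed cells, with a 95% Poisson interval of 67.3 to 73.7) in naïve cells. Among ta-non-activated cells Klrg1 stood at 65.9 CPM (52.5 to 81.7) in week 3 and 9.10 CPM (7.76 to 10.6) in week 2. Among ta-activated cells it stood at 16.4 CPM (14.4 to 18.5) in week 2 and 11.2 CPM (10.0 to 12.4) in week 3. The naïve and week 3 ta-non-activated intervals overlapped, and the other 3 libraries lay well below both. Over all cells, with or without Il1rl1, the naïve level was 63.3 CPM (60.6 to 66.1) and that of ta-non-activated week 3 was 15.6 CPM (13.2 to 18.4), and there the intervals did not overlap. At 2000 UMIs a cell the order at the top was within counting error too, with 12.8% of naïve cells, 13.1% (9.83 to 17.01) of week 3 and 1.71% (0.958 to 2.80) of week 2 ta-non-activated cells, and 2.78% (1.44 to 4.80) and 2.20% (1.56 to 3.01) of ta-activated cells. The 2 ta-non-activated libraries did not resemble each other, and an exact permutation test of 2 libraries against 2 could not go below p = 0.33 (two-sided).

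**Figure D1:**
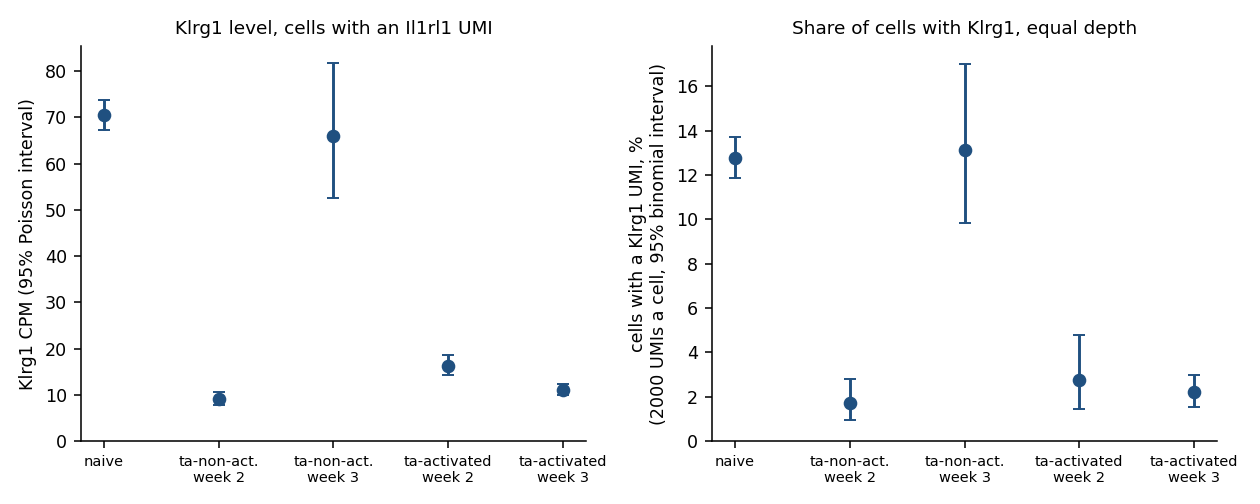
Klrg1 in cells with an Il1rl1 UMI in each of the 5 libraries. Left, CPM of summed counts with 95% Poisson intervals; right, percent of cells with a Klrg1 UMI after thinning to 2000 UMIs, with 95% Clopper-Pearson intervals. The naïve library (70.4 CPM) and the week 3 ta-non-activated library (65.9 CPM) sit together above the other 3 libraries, which lie between 9.10 and 16.4 CPM. Over all cells the values of these 2 libraries were 63.3 and 15.6 CPM.

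Il17rb did not separate the members from the other naïve ILC2s. An Il17rb UMI was found in 246 of the 1084 members (22.7%, 20.2 to 25.3) and in 713 of the 3522 cells without Klrg1 (20.2%, 18.9 to 21.6). At 2000 UMIs the shares were 9.57% (7.29 to 12.3) of 575 cells and 8.83% (7.97 to 9.75) of 4031 cells, with overlapping intervals. Within the members the Il17rb level was 51.1 CPM in cells with 1 Klrg1 UMI, 57.5 CPM with 2 and 44.0 CPM with 3 or more.

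The members carried the defining RNAs of ILC2s. Rora, Gata3, Il7r, Ptprc, Ets1 and Id2 differed from the comparison cells by 0.09 or less on the log2 scale, and Gata3, the defining transcription factor, stood at 838.0 CPM (815.5 to 861.1) in members and 843.1 CPM (827.7 to 858.7) in comparison cells. Il1rl1, used in the rule, was 933.2 CPM against 965.9 CPM. Of the 19 genes of the ILC2 identity list at 20 CPM or more, 8 were above and 11 below the comparison, 0 lay past 1.5-fold, and their median log2 ratio was -0.02, beside 0.02 over all genes compared. Foxp3 (1 UMI), Cd4, Cd8b1 and Pax5 (0 UMIs each) were at or next to 0 in the members.

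Of 5646 genes with a mean of 20 CPM or more, 24 (0.425%) differed by 1.5-fold or more on the scale of log2(CPM + 1), 17 higher (0.301%) and 7 lower (0.124%) in the members, and the log2 ratio was -0.21 at the 5th percentile of genes and 0.26 at the 95th. Past a ratio of 5 to 4, 165 genes were higher and 71 lower. In 5 of the 24 genes, 1 cell held over 10% of the UMIs of a group. The number moved with the cells compared: it was 50 (28 higher, 22 lower) against 1084 comparison cells matched for UMI total, and 110 (80 higher, 30 lower) for the 344 members with 2 or more Klrg1 UMIs.

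**Figure D2:**
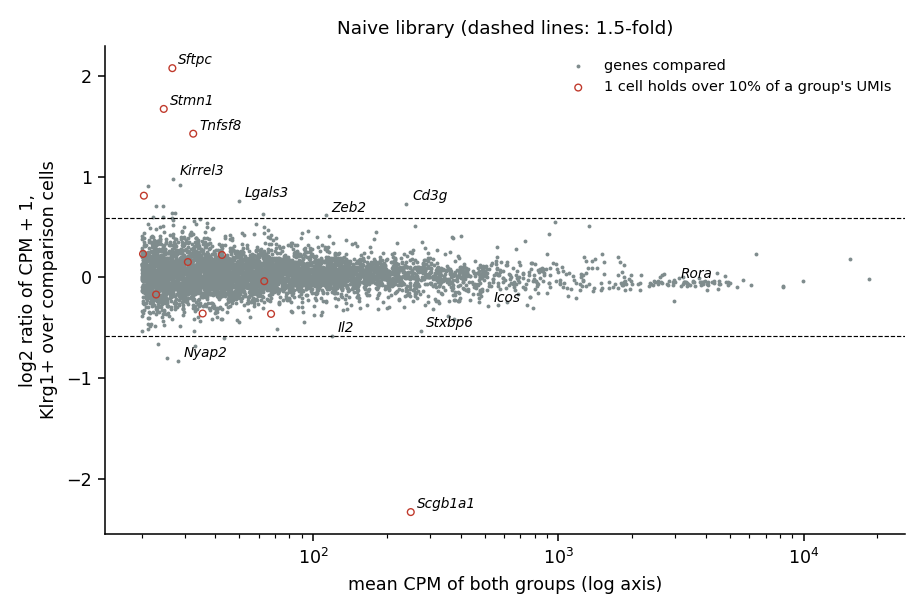
Log2 ratio of CPM + 1, members over comparison cells, against the mean CPM of both groups (log axis) for the 5646 genes compared. Open circles are genes of which 1 cell holds over 10% of a group's UMIs. Most genes lie inside the dashed lines at 1.5-fold, and Sftpc, Stmn1 and Tnfsf8 at the top and Scgb1a1 at the bottom are open circles.

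Cd3g and Zeb2 were the most abundant genes of the higher side. Cd3g encodes a chain of the CD3 complex, lies on chromosome 9 from 44969572 to 44980431 on the minus strand, and was at 299.2 CPM (285.7 to 313.1) in members and 180.0 CPM (172.9 to 187.3) in comparison cells, 1.66-fold higher. At 2000 UMIs, 32.8% of members and 20.04% of comparison cells had a Cd3g UMI, and no cell held over 0.821% of the UMIs of its group. Zeb2 encodes a zinc finger repressor known from terminal differentiation of effector lymphocytes and lies on chromosome 2 from 44983632 to 45117395 on the minus strand. Its level was 136.4 CPM (127.4 to 145.8) against 88.8 CPM (83.8 to 93.9), 1.53-fold higher.

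Further genes of the higher side were less abundant. Kirrel3, a synaptic adhesion molecule, was at 36.1 CPM against 17.8 CPM, and Sema5a, a semaphorin that guides axons, at 37.7 CPM against 19.5 CPM. Cst7, the cystatin of cytotoxic lymphocytes that inhibits granule cathepsins, was at 27.9 CPM (23.9 to 32.3) against 14.4 CPM (12.5 to 16.6). Lgals3 (galectin 3) was at 62.8 CPM against 36.8 CPM and Anxa2, a membrane-binding annexin, at 76.1 CPM against 48.8 CPM. In each of these 5 genes the intervals of the groups did not overlap. The genes were picked by these same ratios, so the separate intervals are a description and no further evidence. Fmn1, a formin that nucleates actin, Wee1, the kinase that holds CDK1 inactive, Topbp1, a DNA damage response scaffold, and Actn2, an actinin, were between 28.5 and 33.5 CPM in members and 17.1 and 21.2 CPM in comparison cells. The log2 ratio of Fmn1 turned from 0.71 to -0.16 when Klrg1 status was set after thinning to 2000 UMIs. Cxcl10, a chemokine, was at 26.3 CPM against 14.6 CPM, with 22.0% of its UMIs in members from 1 cell. Outside the highest 15, Adam8, a membrane metalloprotease, at 29.6 CPM against 19.3 CPM, and Enah, an actin regulator, at 27.1 CPM against 17.5 CPM, also lay past 1.5-fold.

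The 3 highest ratios were those of genes of which 1 cell held over 10% of a group's UMIs, and for Sftpc that cell made the difference. Sftpc, the surfactant protein of alveolar type II cells, was at 43.7 CPM in members and 9.61 CPM in comparison cells, but 210 of the 273 UMIs in members (76.9%) came from 1 cell of 5401 UMIs, and without each group's top cell the levels were 10.1 and 9.09 CPM. The same cell held the most Sftpa1 and Sftpb UMIs of the members. Tnfsf8, the CD30 ligand, was at 47.8 CPM against 17.1 CPM in 27 and 45 cells, and 25.2% of the UMIs in members came from 1 cell. Without each group's top cell Tnfsf8 was at 35.7 CPM against 14.6 CPM, and with status set after thinning its log2 ratio turned to -0.81. Stmn1, a tubulin-binding protein of dividing cells, was at 38.0 CPM against 11.2 CPM, with 17.3% and 19.7% of the UMIs from 1 cell of each group, and at 31.4 CPM against 9.02 CPM without these cells.

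The lower side held lymphocyte signalling and cytokine genes. Il2, the growth factor of lymphocytes, was at 95.02 CPM (87.5 to 103.0) in members and 143.2 CPM (136.9 to 149.8) in comparison cells, 1.502-fold lower, and 10.9% of members against 18.0% of comparison cells had an Il2 UMI at 2000 UMIs. Themis, a T cell receptor signalling adaptor, was at 25.2 CPM against 41.1 CPM, and Tcrg-C1, a constant segment of the gamma chain, at 17.8 CPM against 28.8 CPM. Nyap2 was at 19.9 CPM against 36.2 CPM and Zc3h12c, a zinc finger gene, at 34.1 CPM against 52.4 CPM. Stxbp6, which binds SNARE proteins, had the highest mean CPM of both groups among the lowest 15. It was at 223.9 CPM (212.3 to 235.9) against 324.7 CPM (315.2 to 334.5), which is inside 1.5-fold.

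Other genes of the lowest 15 also lay inside 1.5-fold. Bmp2, a bone morphogenetic protein, was at 58.5 CPM against 83.8 CPM and Tbc1d4, a GTPase-activating protein, at 17.3 CPM against 25.2 CPM. Fnta, Mid1ip1 and D10Wsu102e had log2 ratios between -0.54 and -0.48. Scgb1a1, the secretoglobin of club cells, had the lowest ratio, at 82.2 CPM against 418.1 CPM. A single comparison cell held 76.3% of that group's Scgb1a1 UMIs and 1 member 51.7% of the members', and without these cells the levels were 39.7 and 99.0 CPM.

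**Figure D3:**
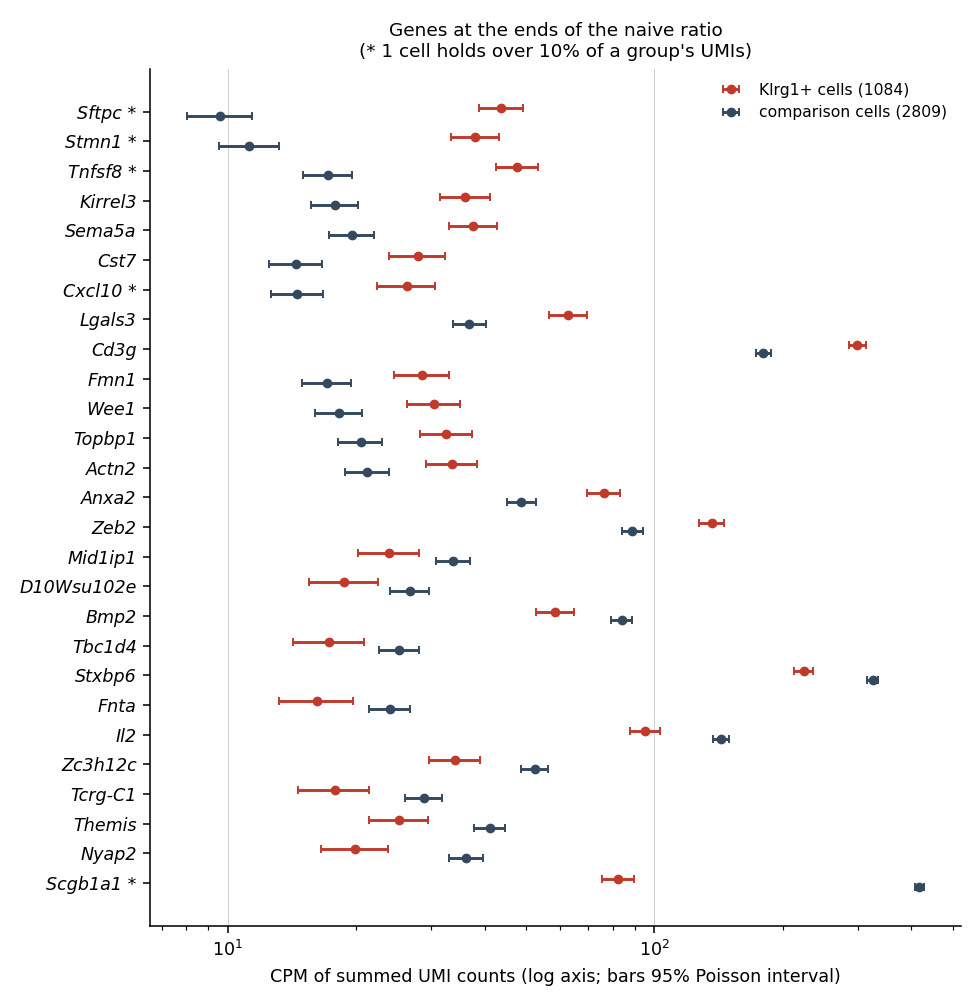
CPM (log axis) of the 15 genes with the highest and 12 of the 15 with the lowest log2 ratio among the 5646 genes compared, in members and comparison cells, with 95% Poisson intervals. Stars mark genes of which 1 cell held over 10% of a group's UMIs. Cd3g (299.2 against 180.0 CPM) and Stxbp6 (223.9 against 324.7 CPM) stand out by level among the genes without a star.

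Effector genes of ILC2s differed in both directions. Of the 9 type 2 cytokine and effector genes at 20 CPM or more, 6 were above and 3 below the comparison, with a median log2 ratio of 0.16 beside 0.02 over all genes, and Il2 was the 1 past 1.5-fold. Csf2, which encodes GM-CSF, was at 420.6 CPM (404.7 to 437.0) against 320.5 CPM (311.0 to 330.2), and Il5 at 200.5 CPM (189.5 to 211.9) against 153.4 CPM (146.8 to 160.1). Areg, which encodes amphiregulin, went the other way, at 848.6 CPM against 946.4 CPM. Il13 was 0 in both groups by the rule.

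Receptor genes lay inside 1.5-fold, in both directions. Of the 20 genes of alarmin and cytokine receptors, 9 were above and 11 below with a median of -0.05, and of the 9 costimulatory genes 3 were above and 6 below with a median of -0.02. Icos was at 464.5 CPM (447.8 to 481.8) against 565.1 CPM (552.5 to 577.9), Tnfrsf18 (GITR) at 291.6 CPM against 342.5 CPM and Cd27 at 35.9 CPM against 48.3 CPM. Of the 7 inhibitory receptor and regulator genes 3 were above and 4 below, with Pdcd1 (PD-1) at 75.6 CPM against 57.6 CPM, Cd200r1 at 266.5 CPM against 263.7 CPM and Cish at 238.1 CPM against 239.8 CPM. Of the 14 killer lectin-like genes listed beside Klrg1, 0 reached 20 CPM, and Klrk1 (NKG2D), the most abundant, was at 15.4 CPM against 17.6 CPM.

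The measured partners of KLRG1 lay inside 1.5-fold. Inpp5d, which encodes SHIP-1, was at 334.7 CPM against 323.8 CPM, Ptpn11 (SHP-2) at 30.9 CPM against 31.8 CPM, and the related Ptpn6 (SHP-1) at 18.4 CPM against 13.9 CPM. Among the ligands, Cdh2 (N-cadherin) was at 23.1 CPM against 22.2 CPM and Cdh1 (E-cadherin) at 2.88 CPM against 2.14 CPM. Of the 9 genes for prostaglandin, leukotriene and neuropeptide signals, 4 were above and 5 below with a median of -0.01. Ramp1 was at 415.5 CPM against 398.8 CPM, Calcrl at 317.8 CPM against 321.5 CPM and Cysltr1 at 129.6 CPM against 157.1 CPM.

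Genes of early activation and of inflammatory ILC2s are given by their counts, with no test. Of the 18 immediate early genes, 16 were below the comparison, with a median of -0.14, for example Junb at 2733 CPM against 3213 CPM and Jun at 564.8 CPM against 669.0 CPM. Of the 10 residency genes 7 were below, with Cxcr6 at 611.3 CPM against 644.1 CPM and Ccr2 at 539.2 CPM against 545.3 CPM. Of the 7 genes of inflammatory ILC2s and tissue exit outside the rule, 6 were above, with a median of 0.19, for example Itga4 at 273.4 CPM (260.5 to 286.7) against 231.4 CPM (223.4 to 239.7) and Itgb7 at 327.2 CPM against 287.7 CPM, the integrin chains that pair as alpha4 beta7. Of the 10 precursor genes 3 were above and 7 below, with Tox at 876.5 CPM against 838.9 CPM and Bach2 at 676.8 CPM against 700.1 CPM. Of the 3 interferon-induced genes at 20 CPM, 2 were above and 1 below, for example Gbp7 at 44.9 CPM against 46.7 CPM.

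Defining markers of other cells were low or at 0 in the members. The summed level of the 14 T cell genes was 1193 CPM in members and 1111 CPM in comparison cells, led by Trbc2 at 503.1 CPM against 498.9 CPM. The defining Cd3e was at 17.9 CPM against 12.6 CPM, Cd3d at 7.85 CPM against 9.39 CPM and Trac at 7.05 CPM against 5.32 CPM, all far below Cd3g, and Cd4, Cd8a and Cd8b1 were at 0 UMIs. The 9 regulatory T cell genes summed to 973.4 CPM against 914.0 CPM, led by Il2ra, which ILC2s also express. Their Foxp3 was at 1 UMI in members, and Capg stood at 167.4 CPM against 135.3 CPM. The type 17 genes summed to 25.3 CPM against 46.9 CPM, led by Il23r, and the NK and ILC1 genes to 93.4 CPM against 81.4 CPM, led by Ccl5 at 76.6 CPM against 54.9 CPM, with Eomes, Gzma and Prf1 at 0 UMIs in members.

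The endothelial genes summed to 383.1 CPM against 403.4 CPM, of which Calcrl and Pecam1 made up most, and Ramp2 was at 2.40 CPM against 8.80 CPM. The epithelial genes summed to 166.5 CPM against 465.7 CPM, led by Scgb1a1 and its single cells. The myeloid genes summed to 6.57 CPM against 4.07 CPM, led by Lyz2 at 3.04 CPM, the B cell genes to 55.0 CPM against 59.2 CPM, nearly all Ighm, and the mast cell and basophil genes to 29.8 CPM against 38.8 CPM, nearly all Cpa3. At least 1 UMI of 15 lineage or cycling genes was found in 19.7% of members, 15.6% of comparison cells and 21.1% of depth-matched comparison cells. Among members the share was 18.5% with 1 Klrg1 UMI, 19.0% with 2 and 29.9% with 3 or more. Leaving such cells out gave 23 genes past 1.5-fold, 17 higher and 6 lower.

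Members with more Klrg1 UMIs held more of some of these RNAs. Csf2 was at 320.5 CPM in comparison cells, 362.1 CPM in members with 1 Klrg1 UMI, 439.0 CPM with 2 and 677.9 CPM with 3 or more. Anxa2 was at 48.8, 67.5, 71.9 and 126.0 CPM in the same order, and Lgals3 at 36.8, 56.8, 65.4 and 88.1 CPM. Il2 ran the other way, at 143.2, 104.7, 94.1 and 48.9 CPM, as did Icos at 565.1, 484.6, 443.4 and 401.3 CPM. Cd3g did not follow the order, with 180.0, 297.9, 332.7 and 248.4 CPM, nor did Il5, with 153.4, 203.4, 172.5 and 233.7 CPM, while Gata3 stayed between 792.9 and 889.6 CPM. Some steps lay within counting error. The Anxa2 intervals were 59.7 to 76.0 CPM with 1 Klrg1 UMI and 58.5 to 87.4 CPM with 2. Those of Icos were 409.1 to 479.8 CPM with 2 and 359.1 to 447.2 CPM with 3 or more. In cells with 3 or more, 1 cell held 22 of the 103 Anxa2 UMIs. The 107 cells with 3 or more UMIs were also the deepest, with a median of 6599 UMIs against 4859.5 in the 740 cells with 1. Klrg1 counts, used by the rule, set these groups, so the order is a description.

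**Figure D4:**
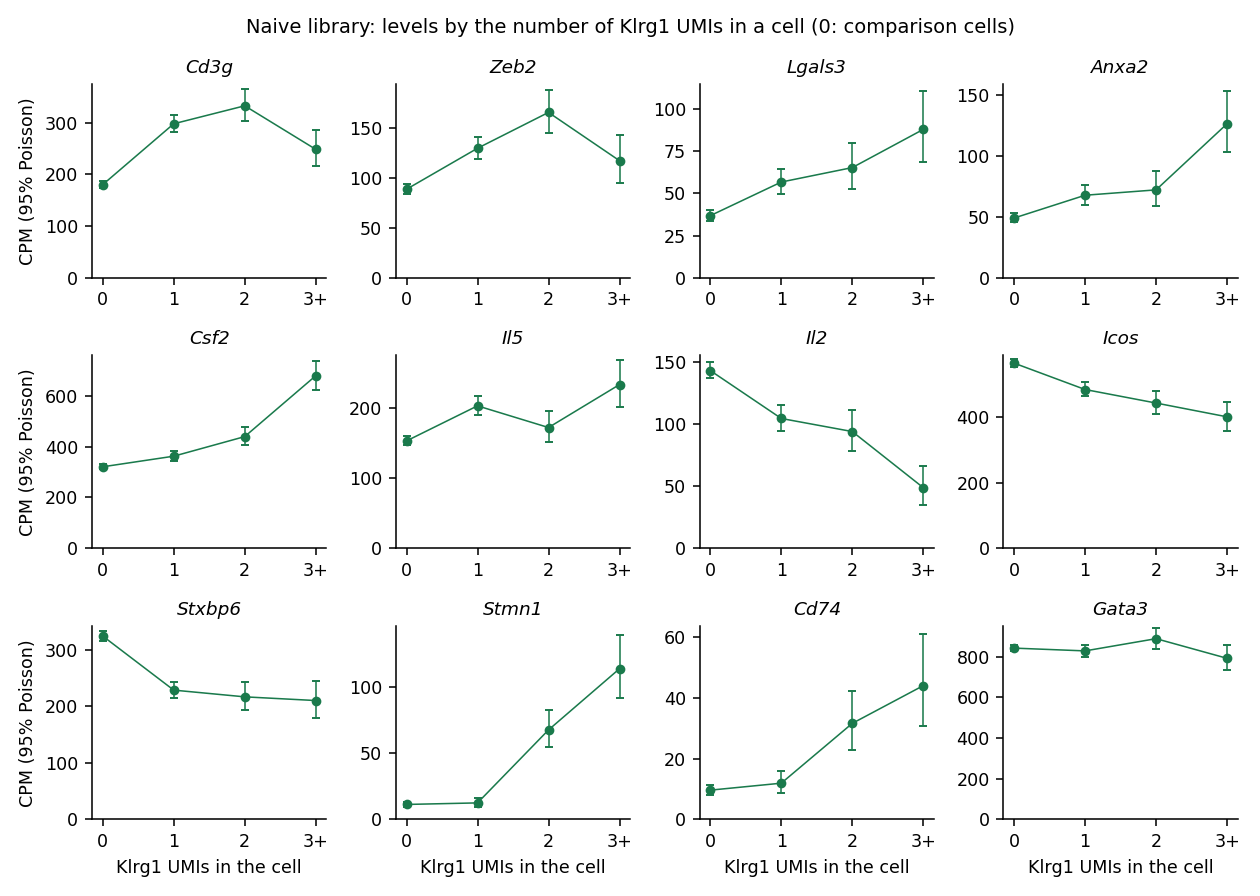
CPM with 95% Poisson intervals of 12 genes in naïve comparison cells (0) and in members with 1, 2 and 3 or more Klrg1 UMIs. The values of Csf2, Anxa2 and Lgals3 are higher and those of Il2 and Icos lower at each step, but some neighbouring intervals overlap. Gata3 stays between 792.9 and 889.6 CPM.

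Several cycling genes were concentrated in the deepest cells of both groups. Stmn1 was at 12.4 CPM in members with 1 Klrg1 UMI, 67.5 CPM with 2 and 113.8 CPM with 3 or more. Of its 237 UMIs in members, 209 lay in the 93 cells with over 10000 UMIs, at 172.5 CPM (149.9 to 197.6), and the 991 other members had 5.57 CPM (3.70 to 8.05), beside 7.49 CPM (6.05 to 9.17) in comparison cells of that depth. The 77 comparison cells over 10000 UMIs had 59.1 CPM (44.9 to 76.5) of Stmn1. Among cells over 10000 UMIs, Pclaf, a replication factor, was at 55.3 CPM (42.9 to 70.2) in members and 11.2 CPM (5.60 to 20.1) in comparison cells, and Mki67 at 68.5 CPM (54.6 to 84.9) against 34.7 CPM (24.0 to 48.5). Top2a, a topoisomerase of dividing cells, was at 57.0 CPM (44.3 to 72.1) against 65.3 CPM (50.3 to 83.3), with overlapping intervals. Single deep cells weighed on Mki67 and Pclaf. Of the 104 Mki67 UMIs of all members, 38 came from 1 cell of 21567 UMIs. Of their 71 Pclaf UMIs, 24 came from 1 cell of 18620 UMIs. In all comparison cells the top cell held 18.8% of the Mki67 and 36% of the Pclaf UMIs. At 2000 UMIs, 2 or more of 11 cycling genes were found in 9 members (0.830%, 0.380 to 1.57) and 6 comparison cells (0.214%, 0.0784 to 0.464). The share was 0.277% (0.0571 to 0.807) in depth-matched comparison cells and 0.270% (0.0327 to 0.973) in the 740 members with 1 Klrg1 UMI, and these intervals overlapped that of the members. Doublets were not called in these data, and their part in the deep cells was not tested.

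Antigen presentation genes were rare. None of the 7 class II genes reached 20 CPM, and their summed level was 49.2 CPM in members and 20.5 CPM in comparison cells. Cd74, the invariant chain, was at 20.5 CPM (17.1 to 24.4) against 9.61 CPM (8.03 to 11.4), and H2-Eb1, a class II beta chain, at 8.17 CPM (6.08 to 10.7) against 2.00 CPM (1.32 to 2.90). At 2000 UMIs, 11 members (1.01%, 0.508 to 1.81) and 10 comparison cells (0.356%, 0.171 to 0.654) had 2 or more class II genes. In 1084 depth-matched comparison cells the share was 0.554% (0.203 to 1.20) and in the 740 members with 1 Klrg1 UMI it was 0.405% (0.0837 to 1.18), so the intervals overlapped. The H2-Eb1 UMIs of the members came from 24 cells, of which 1 held 21.6%.

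The 4 tumour libraries gave a test of the same split in cells that the rule did not use. Since nearly all Il1rl1+ cells of 3 of these libraries had Il13, the Il13 limit was left off. The libraries then held 115 and 69 Klrg1+ cells in the ta-non-activated libraries of weeks 2 and 3, and 73 and 185 in the ta-activated ones, each set against as many cells without Klrg1 or Il17rb of the same UMI totals. Counts were summed by library and status and tested with edgeR's quasi-likelihood test with the library as a block. Of 9382 genes, 18 (0.192%) passed an adjusted p of 0.05, 12 higher (0.128%) and 6 lower (0.064%) in Klrg1+ cells. Of these, 9 were higher and 2 lower in all 4 libraries. The tested cells were pooled from mice, so the p-values measure the spread between these 4 libraries.

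Cd3g was higher with Klrg1 in all 4 tumour libraries, as it was in the naïve one. Among ta-non-activated cells its levels in Klrg1+ and Klrg1- cells were 51.2 and 35.3 CPM in week 2 and 394.5 and 226.6 CPM in week 3. Among ta-activated cells they were 159.8 and 120.2 CPM in week 2 and 183.5 and 116.8 CPM in week 3. The edgeR log2 fold change was 0.59 (SE 0.088), with an adjusted p of 0.011. The adjusted p ranged from 6.3e-06 to 1.0 over 13 alternatives and was under 0.05 in 10 of them, DESeq2 included. It was 1.0 without the library block, 0.69 with status set after thinning and 0.32 without cells that had a lineage gene UMI, with log2 fold changes of 0.66, 1.22 and 0.96. In the Klrg1+ cells Cd3e was at 3, 2, 4 and 9 UMIs and Trac at 2, 1, 7 and 6 UMIs, beside 142, 93, 507 and 747 UMIs of Cd3g in the same order of libraries, and Cd8a was at 0 UMIs in all 4.

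Zeb2 also rose in all 4 tumour libraries. It was at 136.2 and 108.5 CPM, 46.7 and 29.9 CPM, 96.1 and 73.7 CPM, and 248.9 and 157.3 CPM in Klrg1+ and Klrg1- cells of the 4 libraries in the order above, with a log2 fold change of 0.51 (SE 0.095, edgeR adjusted p = 0.037). This call was lost by DESeq2 (adjusted p = 0.38), without scaling factors (0.067), without lineage-marked cells (0.79), after thinning (0.69), without the library block (1.0) and when the week 2 or the week 3 ta-non-activated library (0.076 and 0.10) or the week 3 ta-activated library (0.21) was left out. The adjusted p ranged from 0.00078 to 1.0 over 13 alternatives, and the log2 fold change from 0.40 to 1.11, above 0 in each.

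The other genes higher in all 4 tumour libraries are given with their naïve ratios, and the difference between the 2 was not tested. The naïve ratios are against all comparison cells and the tumour values against depth-matched ones. Itgb7, the integrin beta7 chain, had a log2 fold change of 0.51 (edgeR adjusted p = 0.030) in tumour libraries and a naïve log2 ratio of 0.19. Tmsb4x, which encodes thymosin beta 4, had 0.44 (0.011) and 0.18, Fgl2, a secreted immune regulator, 0.56 (0.030) and 0.09, Pou2f2, a lymphoid POU factor, 0.55 (0.030) and 0.26, and AW112010, a transcript induced in activated immune cells, 0.45 (0.013) and 0.10. Gpr174, a lysophosphatidylserine receptor, had 1.27 (0.021) and -0.21, but it had 1 UMI in Klrg1+ cells of each ta-non-activated library. Cald1 (caldesmon) had 1.84 (0.047) and 0.50, with 7, 2, 54 and 50 UMIs in Klrg1+ cells and 5, 0, 20 and 7 in Klrg1- cells. Against all comparison cells of the tumour libraries Itgb7 had 0.15 (edgeR adjusted p = 0.68), Fgl2 0.25 (0.28), Gpr174 0.40 (0.44), AW112010 0.31 (0.080) and Tmsb4x 0.31 (0.051), so these 5 calls were lost. The calls of Pou2f2 and Cald1 held there (0.42 and 1.43) but not by DESeq2 (adjusted p = 0.30 and 0.62), and they held in 5 of 13 and 4 of 10 alternatives, with log2 fold changes from 0.39 to 0.62 and from 1.26 to 2.06. Without lineage-marked cells AW112010 had 0.11 (edgeR adjusted p = 0.998), Itgb7 0.40 (0.79), Fgl2 0.46 (0.55) and Tmsb4x 0.35 (0.067), so these calls were lost there too, and Gpr174 turned to -0.68. Itgb7 was the only called gene among the 9 tested from the inflammatory ILC2 and exit list, beside 0.192% of all genes tested.

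Lower in all 4 tumour libraries were Marveld1, a membrane protein gene, and Avpi1. Marveld1 had a log2 fold change of -0.73 (edgeR adjusted p = 0.013) and a naïve log2 ratio of -0.13, and Avpi1 had -0.70 (0.034) and 0.02. By DESeq2 the adjusted p was 0.21 and 0.77, with log2 fold changes of -0.71 and -0.66. Without lineage-marked cells the edgeR adjusted p was 0.11 and 0.079 (log2 fold changes -0.92 and -0.89). Without the ta-activated week 3 sample it was 0.20 and 0.10 (-0.60 and -0.50). Each call held in 7 of 13 alternatives, with log2 fold changes below 0 in each. In some libraries the counts were nearly equal: Marveld1 had 9 UMIs in Klrg1+ and 9 in Klrg1- cells of the ta-non-activated week 3 sample, where Avpi1 had 2 and 3, and Avpi1 was at 108.5 and 112.9 CPM in that of week 2. The calls of 7 further genes rested on fewer libraries and were named after their values were seen. Timp3 (-2.56), Ifitm1 (-1.69) and Gap43 (-0.92) were lower in the 2 ta-activated libraries and at 0 UMIs among ta-non-activated cells of week 3, and Gm26870 (-2.12) was lower in the 2 ta-activated libraries. By DESeq2 these 4 calls were lost (adjusted p = 0.9999 for each; Timp3 -1.93, Ifitm1 -1.11, Gap43 -0.76 and Gm26870 -1.23). Without lineage-marked cells Gap43 had -0.10 (edgeR adjusted p = 0.9998), and Timp3 kept its call (-2.93, 0.00010). Of the Gm26870 UMIs in Klrg1- cells of these 2 libraries, 1 cell held 88.1% in week 2 and 46.1% in week 3, and the direction turned after thinning (0.13) and without lineage-marked cells (0.49). H2-Eb1 (1.56) and Gimap4 (0.80) were higher in 3 libraries. Ccl3 (2.21) was higher in 3 libraries with 80.6% to 100% of its UMIs in Klrg1+ cells from 1 cell. By DESeq2 the adjusted p of Gimap4 was 0.49 (log2 fold change 0.83) and that of H2-Eb1 (1.28) and Ccl3 (1.58) was 0.9999.

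Of the class II genes, H2-Eb1 passed in the tumour libraries, from few cells. H2-Eb1 had 68, 3, 176 and 6 UMIs in Klrg1+ cells and 23, 1, 49 and 9 in Klrg1- cells of the 4 libraries, with an edgeR adjusted p of 0.021. In the week 2 ta-activated library 84.7% of the Klrg1+ UMIs came from 1 cell, and the adjusted p was 0.54 without that library, 0.10 and 0.12 without the ta-non-activated one of week 3 or week 2, and 1.0 by DESeq2, with log2 fold changes of 1.11, 1.57, 1.56 and 1.28. Cd74 was spread over more cells, with UMIs in 45 of 115, 5 of 69, 46 of 73 and 100 of 185 Klrg1+ cells, and had a log2 fold change of 0.47 (edgeR adjusted p = 0.59). The summed class II level was 244.4 against 129.1 CPM, 173.9 against 51.3 CPM, 746.8 against 369.0 CPM, and 243.7 against 312.2 CPM, and 1 of the 6 tested genes passed, with a median log2 fold change of 0.68 beside -0.01 over all genes.

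Of the 15 highest naïve genes, 12 were tested in the tumour libraries and 2 passed, Cd3g and Zeb2, both in the naïve direction, beside 0.192% of all genes tested. The fold changes of the 12 were above 0 in 6 and below 0 in 6. Cst7 (log2 fold change 0.50, edgeR adjusted p = 0.11) and Actn2 (0.91, adjusted p = 0.090) were also higher in all 4 libraries and did not pass. Anxa2 (-0.47, adjusted p = 0.075), Stmn1 (-0.40, 0.36) and Topbp1 (-0.41, 0.33) were lower in all 4, opposite to the naïve library, and did not pass either. Anxa2 was nearly equal among ta-non-activated cells of week 3 (14 and 14 UMIs, 59.4 and 59.9 CPM), as was Topbp1 among ta-activated cells of week 3 (187 and 191 UMIs, 45.9 and 47.0 CPM). Of the 15 lowest naïve genes 8 were tested and 0 passed, with 6 below and 2 above 0. Il2, Themis, Nyap2, Tbc1d4 and Scgb1a1 were among those under the count filter there. Il5 had a log2 fold change of 0.32 (adjusted p = 0.85), Csf2 0.09 (0.98) and Icos -0.30 (0.27), the last lower in all 4 libraries.

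**Figure D5:**
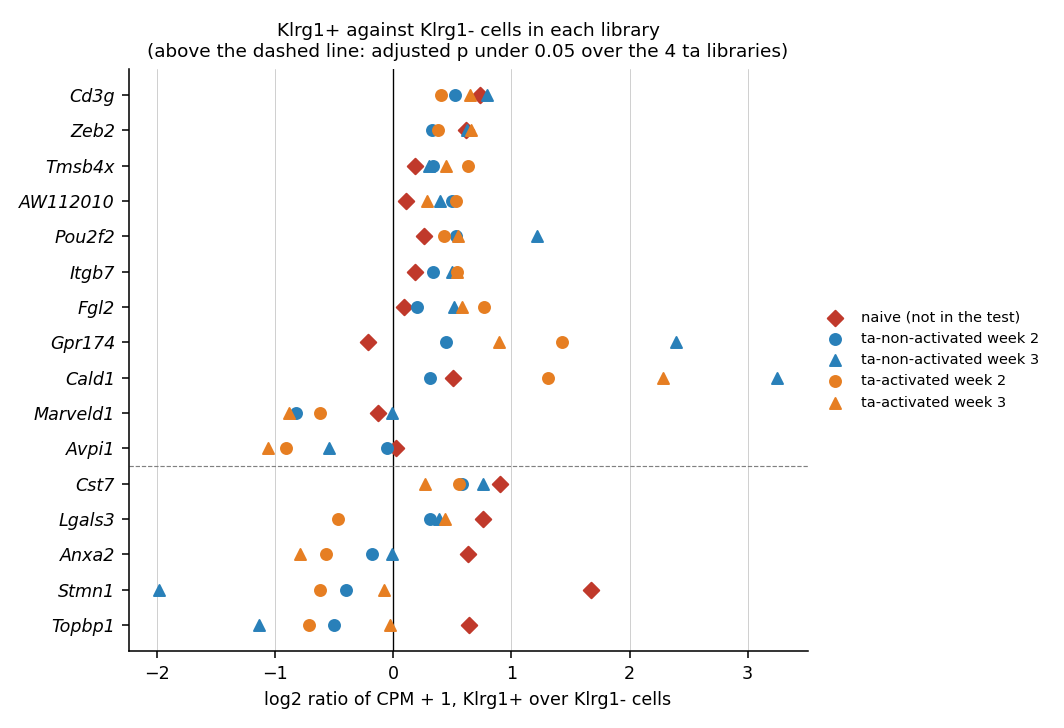
Log2 ratio of CPM + 1, Klrg1+ over Klrg1- cells, in the naïve library and the 4 tumour libraries for 16 genes. The 11 genes above the dashed line passed an adjusted p of 0.05 (edgeR) over the 4 tumour libraries with the same direction in each; Cd3g and Zeb2 lie right of 0 in all 5 libraries, and Anxa2, Stmn1 and Topbp1 lie right of 0 only in the naïve library.

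The other lists held few or no calls in the tumour libraries, where 0.192% of all genes passed. The T cell list had 1 call of 7 tested genes (Cd3g), the interferon list 1 of 15 (Ifitm1, lower), and the ILC2 identity, receptor, type 2, residency, immediate early, costimulatory, inhibitory and precursor lists had 0 of 23, 20, 13, 12, 16, 12, 11 and 8. All 14 cycling genes were tested and 0 passed, with a median log2 fold change of -0.48 beside -0.01 over all genes, where the 3 genes of this list at 20 CPM in naïve cells had ratios above 0. In 8 genes (0.0853%) the difference itself differed between ta-activated and ta-non-activated libraries by an edgeR interaction test. The summed NK and ILC1 level was 78.9 against 69.9 CPM, 67.9 against 243.7 CPM, 302.8 against 1112 CPM, and 826.7 against 476.7 CPM in Klrg1+ and Klrg1- cells of the 4 libraries, in no common direction. The part of these other cells in the called genes was not tested.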

How the data were processed

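ILC2 RNA was measured on the 10x Genomics 3' platform. What the authors deposited were UMI counts of each gene in each barcode. Matrix headers name Cell Ranger 6.0.0 for naïve cells and 3.0.2 for the other 4 libraries, and the submitters' notes name Cell Ranger 3.0.2 and GRCm38. No normalization had been applied to these counts. The 27726 genes common to the 5 matrices were used, of which 27639 were found in GENCODE M21. Common-gene totals were 33374762 UMIs (naïve), 33324823 and 9910201 (ta-non-activated, weeks 2 and 3), and 68919437 and 71126524 (ta-activated).

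Counts were summed over cells. CPM has exact Poisson intervals and shares have Clopper-Pearson intervals (95%). Naïve ratios used 1 CPM added, a mean of at least 20 CPM and 1.5-fold, and no test. The tumour libraries were tested with edgeR 4.0.16 (filterByExpr, TMM, library block, Benjamini-Hochberg, at least 20 Klrg1+ cells a library), since both statuses come from the same library. Klrg1 and Il17rb were left out of the tested genes. The procedure was tested on simulated data with a dispersion set at 0.02. It recovered 24% of 50 genes changed 1.5-fold and 90% of 50 genes changed 2-fold. A gene that did not pass can therefore not be read as unchanged. DESeq2 1.42.0 was an alternative. R 4.3.3, Python 3.11.15, numpy 2.4.6, scipy 1.17.1, pandas 2.3.3 and matplotlib 3.10.9 were used.

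Named genes were the 15 highest and 15 lowest naïve ratios, up to 10 tumour-library calls each way with 1 direction in all 4 libraries, and the most abundant 2 to 4 genes of each of 24 lists with those past 1.5-fold. Genes outside this rule were named after their values were seen, and some genes inside it are not reported here. The members and lists were chosen with earlier results of these data known. No doublet caller was run.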

Additional observations from a re-analysis of the deposited data

Results flagged for a closer look

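In 8 of 9382 genes (0.0853%) the difference between Klrg1+ and Klrg1- cells itself differed between the ta-activated and the ta-non-activated libraries (edgeR interaction test, 2 libraries against 2, adjusted p under 0.05). The 2 ta-non-activated libraries were unlike each other, since 96.5% of Il1rl1+ cells in week 2 and 5.74% in week 3 had Il13, against 97.7% and 95.5% in the ta-activated ones, so the groups do not part these libraries as their Il13 does. On the log2 scale the difference between the groups was 1.14 for Areg (adjusted p = 0.00041), 0.997 for Il9 (0.00049), 1.84 for Nr4a1 (0.047) and 2.50 for Ramp3 (0.045). For Areg the Klrg1+ and Klrg1- levels were 303.5 and 424.3 CPM (week 2) and 746.5 and 1146 CPM (week 3) without activation, and 2355 and 1670 CPM (week 2) and 771.4 and 528.6 CPM (week 3) with it. The interaction was -2.83 for Gm26870 (0.00085), 3.33 for Penk (0.0049), -2.33 for Il22 (0.026) and -3.07 for Cdkn2a (0.036). In Klrg1+ cells of the week 2 ta-non-activated library 1 cell held 94.6% of the Il22 UMIs and 96.8% of the Penk UMIs. In its Klrg1- cells 1 cell held 94.4% of the 36 Ramp3 UMIs, beside 2 UMIs in Klrg1+ cells. For Il9, 1 cell held 58.6% and 73.6% of the UMIs in Klrg1+ cells and 76.8% and 48.2% in Klrg1- cells of the ta-activated libraries. For Gm26870, 1 cell held 88.1% and 46.1% of the UMIs in their Klrg1- cells. For Cdkn2a, 1 cell held 41.0% of the 39 UMIs in Klrg1+ cells of the week 2 ta-non-activated library, beside 5 UMIs in Klrg1- cells. Il9, Il22, Penk and Cdkn2a were at 0 UMIs in both groups of the week 3 ta-non-activated library. Of the 8 genes, Gm26870 was also called in the test over all 4 libraries.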

How the results depend on the processing

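The count of 24 naïve genes past 1.5-fold became 50 with depth-matched comparison cells, 38 with Klrg1 status set after thinning to 2000 UMIs, 110 where members needed 2 Klrg1 UMIs, 5 at 50 CPM or more, 773 with no level filter and 236 past a ratio of 5 to 4. It stayed within 1.5 times under the other alternatives run. Without each gene's top cell, an alternative chosen after seeing the data, it was 22. After thinning, the log2 ratio of Sftpc was -1.09, of Tnfsf8 -0.81 and of Fmn1 -0.16, and without cells over 10000 UMIs that of Stmn1 was -0.37; the cause was not tested. No other of the 30 named naïve genes changed sign in the 13 alternatives run on them. The share of Klrg1+ naïve cells was 12.5% after thinning. Over all cells the Klrg1 level was 63.3 CPM (naïve), 15.6 CPM (ta-non-activated week 3), 7.33 CPM and 8.14 CPM (ta-activated weeks 2 and 3). In cells without Il13 it was 13.2 CPM (ta-non-activated week 2) and 29.8 CPM (ta-activated week 3), and without lineage gene UMIs 28.8 CPM and 12.9 CPM (ta-activated weeks 2 and 3). The share of cells with Klrg1 was 24.6%, 13.1%, 18.9%, 16.9% and 10.7% without thinning and 6.83%, 0.796%, 6.83%, 1.16% and 1.10% at 1000 UMIs, in the order naïve, ta-non-activated and ta-activated, week 2 before week 3. In cells without Il13 the share at 2000 UMIs was 0 of 31 (ta-non-activated) and 0 of 10 cells (ta-activated) in the week 2 libraries. The upper limits there were 11.2% and 30.8%. It was 1.28% among ta-activated cells of week 3. Without thinning these 3 libraries had 9.68%, 10% and 8.97% in the same order.

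The number of calls in the tumour libraries, 18, was 4 with DESeq2 (4 shared with the 18), 188 with all genes of at least 1 count (18 shared), 0 without the replicate block (18 genes at an unadjusted p under 0.05), 54 with all comparison cells (12 shared), 6 without cells with a lineage gene UMI (1 shared, Timp3) and 0 with status set after thinning, which left 2 libraries (207 genes at an unadjusted p under 0.05). Leaving out 1 library gave 11 to 69 calls: 24 without the week 2 (13 shared) and 11 without the week 3 (7 shared) ta-non-activated library, and 23 without the week 2 (10 shared) and 69 without the week 3 (9 shared) ta-activated library. All 5 libraries together gave 27 (12 shared). Gm26870 reversed after thinning (0.13) and without lineage-marked cells (0.49), as did Gpr174 in the latter (-0.68). The fit restricted to cells without Il13 was not run, since only 1 library had at least 20 Klrg1+ cells. Depth limits the naïve split, since 740 of 1084 members held 1 Klrg1 UMI.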
